A study of Homo sapiens with 10 samples.

Results

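A set of 10 genes that human embryonic stem cells transcribed in the wild type (WT) and that were at or near silence after knockout of KCNH2 was described across 10 polyA RNA-seq libraries. The genes are TSPYL5, ZNF229, CCDC169, SOHLH2, SYT11, PKIB, BEX5, TRIM61, MAOA and HAS1, 10 of the 32152 genes counted. They were picked by name because the knockout libraries held few or no reads of them, so every contrast of their own levels below is a description without a test. There were 5 libraries of KCNH2 knockout cells (KCNH2-/-) and 5 of isogenic WT cells, all of the embryonic stem cell line H9 (WAe009-A), grown on Matrigel under conditions the series describes as pluripotent. hERG1, the product of KCNH2, forms the pore of a potassium channel that repolarises heart muscle. The labels call the edited cells knockout in the titles and knockdown in the genotype field. The knockout cells grew in mTeSR Plus and the WT cells in TeSR-E8, so medium and genotype cannot be told apart. The labels do not say whether the 5 libraries of a group are separate cultures, and the p-values reflect the spread between libraries, which may be technical. The titles of the 5 knockout libraries share a prefix that the titles do not explain. The number of edited clones behind these libraries is not stated in the sources at hand, so clone and genotype cannot be told apart either.

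The knockout libraries held 29788732 to 40587206 counts and the WT libraries 28615751 to 47319933. Levels are counts per 1000000 (CPM) of library size after TMM scaling, a correction for composition. KCNH2 mRNA itself was 12.2 ± 1.001 CPM in knockout libraries and 15.5 ± 0.753 CPM in WT libraries (SD, n = 5 each), or 78.9% of WT (log2 fold change -0.35, SE 0.06, edgeR adjusted p = 0.000648). Counts over a whole gene do not check an edit whose position the labels do not state. Markers of pluripotent cells summed to 6487 to 6972 CPM in the knockout and 5700 to 5964 CPM in WT, with 6 of 10 markers called higher and 0 called lower. Of all tested genes 21.9% were called higher and 24.1% lower. A list of trophoblast and amnion markers, 8 of 10 with a row in the table, summed to 11.0 to 14.7 CPM in the knockout and 28.8 to 36.1 CPM in WT. Of these, GATA3, TFAP2A, ISL1, VTCN1, TP63 and CGB5 were under 0.5 CPM in every library. Most of that sum therefore comes from KRT7 and GABRP. The endoderm list, 8 of 10 with a row, summed to 2.54 to 3.33 CPM in the knockout and 4.78 to 7.87 CPM in WT, with GATA4, GATA6 and HNF4A under 0.5 CPM in every library. The fibroblast list, 8 of 10 with a row, summed to 832 to 957 CPM in the knockout and 951 to 1028 CPM in WT, with COL3A1 under 0.5 CPM in every library. DCN and LUM had no row in the table, so no level can be given for them. Neural, mesoderm and endothelial or blood lists summed to 93.1 to 114.5, 83.4 to 91.9 and 10.7 to 19.04 CPM in the knockout and to 106.2 to 121.8, 77.3 to 85.0 and 10.8 to 13.1 CPM in WT. Of those tested, 3 of 6 fibroblast, 2 of 4 endoderm and 2 of 2 trophoblast and amnion markers were called lower and 0 higher. Of 6 tested neural markers 2 were higher and 3 lower. Of 5 tested mesoderm markers 2 were higher and 0 lower, and of 5 endothelial or blood markers 1 was higher and 3 lower. The part of such cells in the losses below was not tested, and in bulk RNA fewer cells of a type and less RNA per cell cannot be told apart. Knockout library 3 stood apart from the other knockout libraries on the second principal component of all tested genes (-59.1 against -2.26 to 13.9), with WT libraries 3 (-32.2) and 2 (-10.1) on its side.

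The 10 genes belong to no single pathway. TSPYL5 belongs to the nucleosome assembly protein family and has been reported in human cells to bind the deubiquitinase USP7. ZNF229 is a C2H2 zinc finger protein, SOHLH2 a basic helix-loop-helix factor known from germ cell differentiation in mice, and TRIM61 a member of the tripartite motif family. PKIB inhibits the catalytic subunit of protein kinase A, SYT11 is a synaptotagmin of vesicle traffic, MAOA deaminates serotonin and noradrenaline at the outer mitochondrial membrane, and HAS1 makes the matrix polysaccharide hyaluronan at the plasma membrane. BEX5 is 1 of a family of small proteins encoded on the X chromosome. CpG-rich promoters are common among human genes, and these data hold no measure of DNA methylation or chromatin.

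The start regions were then compared for what the choice of genes did not use. RefSeq windows of 300 bases, from 250 before to 50 after a start (GRCh38.p14, the same assembly as the hg38 named by the submitters), were at hand for 9 of the 10 genes, in 13 windows because PKIB has 3 starts and ZNF229 and BEX5 have 2. The 5 windows below are shown because they cover 2 genes with no knockout read and the 3 with the most WT reads. Capitals mark CpG dinucleotides, read 5′ to 3′ on the strand of the gene.
CCDC169: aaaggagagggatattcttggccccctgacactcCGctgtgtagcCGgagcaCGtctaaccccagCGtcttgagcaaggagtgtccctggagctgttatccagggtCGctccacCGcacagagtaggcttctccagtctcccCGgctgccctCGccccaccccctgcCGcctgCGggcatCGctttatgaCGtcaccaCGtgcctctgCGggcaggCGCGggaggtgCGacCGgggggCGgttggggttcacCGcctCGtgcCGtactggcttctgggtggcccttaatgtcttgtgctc
ZNF229: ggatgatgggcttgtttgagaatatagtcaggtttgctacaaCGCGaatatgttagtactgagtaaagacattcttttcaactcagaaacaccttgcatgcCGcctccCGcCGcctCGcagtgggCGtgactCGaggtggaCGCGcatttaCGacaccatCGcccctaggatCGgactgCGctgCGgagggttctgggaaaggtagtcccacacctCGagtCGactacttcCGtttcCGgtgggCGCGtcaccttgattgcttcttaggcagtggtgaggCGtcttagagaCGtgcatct
PKIB: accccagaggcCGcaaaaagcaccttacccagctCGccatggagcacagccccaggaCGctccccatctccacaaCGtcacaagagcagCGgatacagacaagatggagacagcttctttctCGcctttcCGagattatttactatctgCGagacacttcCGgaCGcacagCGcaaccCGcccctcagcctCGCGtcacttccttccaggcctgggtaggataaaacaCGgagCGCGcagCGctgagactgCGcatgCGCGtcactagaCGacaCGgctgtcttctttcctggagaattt
MAOA: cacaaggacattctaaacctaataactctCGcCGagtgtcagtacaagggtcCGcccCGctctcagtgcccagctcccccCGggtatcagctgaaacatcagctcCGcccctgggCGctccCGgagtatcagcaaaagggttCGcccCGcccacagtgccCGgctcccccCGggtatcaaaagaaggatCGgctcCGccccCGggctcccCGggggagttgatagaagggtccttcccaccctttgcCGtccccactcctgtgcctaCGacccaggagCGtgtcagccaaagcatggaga
SYT11: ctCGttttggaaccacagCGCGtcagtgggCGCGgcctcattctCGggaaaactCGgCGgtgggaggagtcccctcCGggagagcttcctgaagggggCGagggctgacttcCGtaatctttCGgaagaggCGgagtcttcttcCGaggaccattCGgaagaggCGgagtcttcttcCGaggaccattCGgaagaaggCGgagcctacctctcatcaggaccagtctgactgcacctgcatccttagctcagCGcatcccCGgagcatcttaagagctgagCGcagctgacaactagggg
They lie at chr13:36297765-36298064 (minus strand), chr19:44448423-44448722 (minus), chr6:122471671-122471970 (plus), chrX:43656049-43656348 (plus) and chr1:155859317-155859616 (plus), in the order printed. The CCDC169 window also covers the annotated start of the read-through transcript CCDC169-SOHLH2, which runs on into SOHLH2.

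Most of the windows were rich in CpG. GC content above 50% with a CpG observed over expected ratio above 0.6 was met by 8 of 13 windows, against 46.8% of the 35116 windows in the table. At least 1 window met it in 7 of 9 genes, for which no share over all genes was at hand. The median ratio was 0.66 in the 13 windows and 0.58 over all windows. The ZNF229 window shown had 23 CpG and a ratio of 1.04, above 94.7% of all windows. PKIB had 23 CpG in the first window and 30 in the second but 1 CpG in the third, whose ratio was 0.093. At the low end stood TRIM61 (10 CpG, ratio 0.42) and HAS1 (15 CpG, ratio 0.45).

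No single motif ran through the set. The GC box GGGCGG, read on both strands as were all motifs, was in 8 of 13 windows, against 45.0% of all windows. It was in at least 1 window of 7 of 9 genes, again without a share over all genes. The ETS core CGGAAG was in the first windows of SYT11, TRIM61, PKIB and ZNF229, against 19.5% of all windows, with 6 matches in SYT11, where a short repeat can be seen in the sequence above. The cAMP response element TGACGTCA was in the windows of CCDC169 and HAS1 and in 1.85% of all windows. Its 5-base part TGACG, which those matches contain too, was in 9 of 13 windows and 24.6% of all. A match of letters shows no bound factor, and windows of 1 gene overlap or share a locus.

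Of the 10 genes, 4 had 0 counts in every knockout library. TSPYL5 (ENSG00000180543, chromosome 8, 97273474 to 97277964, minus strand of GRCh38, a single exon in GENCODE 29) had no count in knockout libraries 1 to 5, against 8.57, 8.20, 8.23, 8.42 and 8.26 CPM in WT libraries 1 to 5. The WT libraries varied by 1.88% of their mean, the least of the 10 genes. That is an SD of 0.157 CPM, below the 0.467 CPM that counting alone gives. Against a floor of 3 counts over the knockout group, TSPYL5 was at least 489-fold lower, a knockout level of at most 0.205% of WT. ZNF229 (chromosome 19, 44417519 to 44448578, minus strand) had no count in the knockout either, against 3.01, 3.26, 3.18, 3.39 and 3.603 CPM in WT. That puts it at least 192-fold lower by the same floor.

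The other genes without a knockout count were CCDC169 and SOHLH2, which lie in tandem on the minus strand of chromosome 13. CCDC169 (36222008 to 36297840), a coiled-coil protein gene, had 0 counts in the knockout, against 3.21, 3.06, 3.07, 2.58 and 2.99 CPM in WT, and was at least 176-fold lower. SOHLH2 (36168208 to 36214615) had 0 counts in the knockout, against 0.329, 0.475, 0.445, 0.347 and 0.374 CPM in WT. With 79 WT counts in all, the depth shows only that SOHLH2 was at least 23.5-fold lower, or at most 4.25% of WT. The read-through transcript shares 1470 exonic bases with SOHLH2, or 43.2% of its exons, and 579 with CCDC169, so reads of the 2 genes may come in part from 1 RNA. For a single knockout library the limit of 3 counts comes to between 0.0764 and 0.101 CPM. Intervals and limits cover counting error only.

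**Figure D1:**
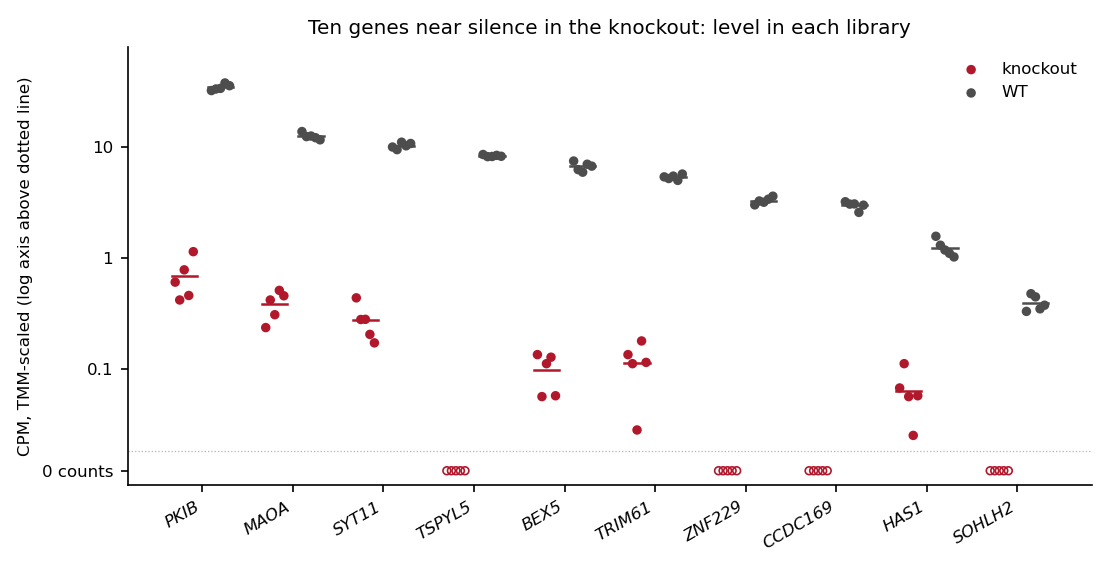
Level of each of the 10 genes in each of the 10 libraries, in CPM on a log axis, with counts of 0 drawn below the dotted line. Points are libraries and bars are group means (knockout red, WT grey). No gene's knockout libraries reach its lowest WT library, and 4 genes are at 0 in all 5 knockout libraries.

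The other 6 genes kept a few percent of their WT level. PKIB (chromosome 6, 122471917 to 122726373, plus strand), the most abundant of the set in WT by CPM and per kilobase, measured 0.604, 0.417, 0.780, 0.458 and 1.14 CPM in knockout libraries 1 to 5, against 32.4, 33.4, 33.9, 37.9 and 35.8 CPM in WT. The knockout held 1.96% of the WT level (95% counting interval 1.62 to 2.35%), a fitted log2 fold change of -5.67 (SE 0.17). MAOA (chromosome X, 43654907 to 43746824, plus strand) measured 0.235, 0.417, 0.307, 0.509 and 0.455 CPM in the knockout, against 13.8, 12.4, 12.6, 12.2 and 11.6 CPM in WT. The MAOA level left was 3.12% of WT (2.42 to 3.96%). SYT11 (chromosome 1, 155859509 to 155885199, plus strand) measured 0.436, 0.278, 0.279, 0.204 and 0.171 CPM in the knockout, against 10.01, 9.48, 11.1, 10.3 and 10.8 CPM in WT. It kept 2.60% of WT (1.90 to 3.47%).

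The rest of the set had between 1 and 7 counts in each knockout library. BEX5 (chromosome X, 102153708 to 102156057, minus strand) had 4, 2, 4, 5 and 2 counts in the knockout, against 296, 303, 267, 242 and 198 in WT. TRIM61 (chromosome 4, 164954446 to 164977668, minus strand) had 4, 4, 1, 7 and 4 counts in the knockout, against 213, 252, 246, 173 and 168 in WT. HAS1 (chromosome 19, 51713112 to 51723994, minus strand) had 2, 4, 2, 1 and 2 counts in the knockout, against 62, 63, 53, 38 and 30 in WT. These leave 1.46% of the WT level for BEX5 (0.846 to 2.34%), 2.13% for TRIM61 (1.29 to 3.30%) and 5.00% for HAS1 (2.46 to 9.11%). A processed pseudogene annotated in the same orientation shares 33.2% of the exonic bases of TRIM61, so its reads may be split.

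**Figure D2:**
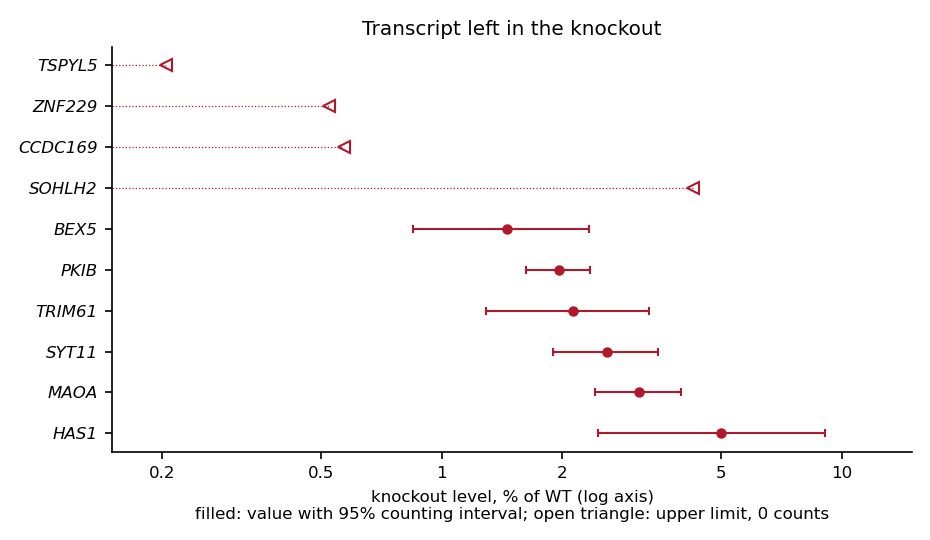
Knockout level as a percentage of the WT level, on a log axis, for each of the 10 genes. Filled points carry 95% counting intervals and open triangles are upper limits for genes with 0 knockout counts, from at most 0.205% for TSPYL5 to 4.25% for SOHLH2. The values run from 1.46% for BEX5 to 5.00% for HAS1.

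What was left differed between genes by more than counting error, a description of the values by which the genes were chosen. The upper limits for TSPYL5 (0.205%), ZNF229 (0.522%) and CCDC169 (0.569%) lay below the lower ends of the intervals of BEX5, PKIB, TRIM61, SYT11, MAOA and HAS1, of which BEX5 had the lowest, 0.846%. The limit for SOHLH2 (4.25%) is too high to place that gene in either group.

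The remnants were spread over all 5 knockout libraries. The 10 genes together held 1.61, 1.39, 1.56, 1.502 and 1.99 CPM in knockout libraries 1 to 5, against 83.1 to 88.1 CPM in the WT libraries. Knockout library 3, which stood apart on all genes, lay inside the range of the other knockout libraries in this sum, of which PKIB makes 0.780 CPM. By the mean percentage of WT over the 10 genes it was the lowest, with 1.41%, where the other 4 knockout libraries had 1.47 to 1.92%. Within the knockout, PKIB varied most beyond counting error, with an SD of 0.293 CPM where counting alone gives 0.140 CPM, and library 5 was the highest. For MAOA the SD was 0.112 CPM against 0.105 CPM from counting, and for BEX5 0.0382 CPM against 0.0527 CPM.

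In WT the 10 genes were modestly expressed. Their WT levels ran from the 5.59th percentile of the 19163 tested genes for SOHLH2 to the 68.9th percentile for PKIB. Per kilobase of annotated exon, PKIB led with a WT level of 10.1 CPM, then BEX5 with 6.29, TRIM61 with 3.38, MAOA with 2.26, SYT11 with 1.97 and TSPYL5 with 1.86. At the low end stood ZNF229 with 0.597, HAS1 with 0.550, CCDC169 with 0.337 and SOHLH2 with 0.116 CPM per kilobase. Exon lengths are the union over transcripts, which understates the level of genes with many unused exons.

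All 10 genes passed the filter on low counts, which their WT libraries alone sufficed for. In 10 of 10 every knockout library lay below every WT library, which held for 17.7% of all tested genes and which the choice of the genes fixed. Of all tested genes 46.0% were called in either direction (edgeR adjusted p under 0.05). Losses of this size were rare. Of 12206 genes with a WT level of at least 5 CPM, 9 had a knockout mean over 10-fold below the WT mean. These were TSPYL5, BEX5, PKIB, TRIM61, SYT11, MAOA and 3 genes outside the set, while the remaining members had less than 5 CPM in WT. The eye-field homeobox gene SIX6 kept 6.07% of its WT level (5.60 to 6.57%), at 3.75 ± 1.19 CPM in knockout libraries and 60.2 ± 2.89 CPM in WT libraries (SD, n = 5 each). The zinc finger gene ZNF562 kept 8.03% (7.09 to 9.08%), at 1.58 ± 0.223 CPM in knockout libraries and 19.7 ± 1.02 CPM in WT libraries. The gene listed as LINC02693, named after its values were seen, kept 0.946% (0.622 to 1.38%), at 0.153 ± 0.102 CPM in knockout libraries and 16.2 ± 0.688 CPM in WT libraries. Among genes of at least 1 CPM in WT, 3 had 0 counts in all 5 knockout libraries, and these were TSPYL5, ZNF229 and CCDC169. The opposite pattern, a knockout level of at least 5 CPM with WT over 10-fold below it, was met by 15 genes.

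The authors' deposited table lists all 10 genes as changed, with log2 fold changes smaller in size than those fitted to the counts here. In the authors' deposited table PKIB stands at -5.02, TSPYL5 at -4.80, SYT11 at -4.18, MAOA at -4.17 and BEX5 at -4.08. The same table gives TRIM61 -3.79, ZNF229 -3.62, CCDC169 -3.49, HAS1 -2.08 and SOHLH2 -1.23, in the authors' deposited values. The fits to the counts gave -5.52 for TRIM61 (SE 0.21), -6.06 for BEX5 (SE 0.17), -5.25 for SYT11 (SE 0.16), -4.99 for MAOA (SE 0.14) and -4.23 for HAS1 (SE 0.27). For SOHLH2 the authors' deposited -1.23 (SE 0.187) stands beside counts that put it at least 23.5-fold lower. The deposited values come from a different fit (the submitters name DESeq2, edgeR was used here). Their sizes are therefore not like for like, and the source of the difference was not tested.

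The genes next to the 10 were then examined, with the question of whether a loss reached beyond the gene itself. Up to 3 tested genes on each side within 500 kb gave 47 neighbours. Of these, 17 fell and 6 rose in the knockout at an edgeR adjusted p under 0.05, where 24.1% of all tested genes fell and 21.9% rose. The median log2 fold change of the neighbours was 0.01, and that of all tested genes was 0.002. Changes beyond 1 on the log2 scale were found in 3 neighbours, where 3.26% of all tested genes were called and beyond 1, and each of the 3 overlapped the span of one of the 10 genes. The 44 neighbours outside those spans lay between -0.71 and 0.95, with 14 lower and 6 higher.

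The 3 overlapping transcripts were low. AL512283.1, annotated as a sense intronic transcript inside PKIB (chromosome 6, 122643388 to 122644771), had 2 counts over the knockout libraries and 97 over the WT libraries (log2 fold change -5.08, SE 0.48, edgeR adjusted p = 8.62e-06). Z99129.3, which shares 454 exonic bases with PKIB near its start, had 19 counts over the knockout libraries and 112 over the WT libraries (-2.37, SE 0.33, edgeR adjusted p = 1.42e-04). Both lie on the strand of PKIB, so their reads cannot be told apart from those of unspliced or alternative PKIB RNA. FAM218A, inside the span of TRIM61 on the opposite strand, measured 0.643 ± 0.219 CPM in knockout libraries and 1.71 ± 0.297 CPM in WT libraries (-1.42, SE 0.22, edgeR adjusted p = 3.02e-04). Without a stated strand setting its reads and those of TRIM61 may be mixed.

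The loss of SYT11 and PKIB was not seen at the genes that start beside them. GON4L starts 0.109 kb from SYT11 in the opposite direction and fell to 55.6 ± 1.07 CPM in the knockout, against 65.5 ± 2.29 CPM in WT (-0.24, SE 0.03, edgeR adjusted p = 6.36e-05). SERINC1 starts 0.095 kb from the outermost annotated start of PKIB, also in the opposite direction. PKIB has further starts inside the gene, and counts per gene do not show which start the WT cells used. SERINC1 measured 56.3 ± 3.21 CPM in knockout libraries and 53.8 ± 1.83 CPM in WT libraries, and no difference was called (0.07, SE 0.04, edgeR adjusted p = 0.206). SPART, which ends 3.798 kb upstream of CCDC169, rose by 0.23 (SE 0.04, edgeR adjusted p = 4.81e-04), while DCLK1, 36.9 kb beyond SOHLH2, fell by 0.39 (SE 0.06, edgeR adjusted p = 2.25e-04). SPACA6, 0.725 kb from HAS1, fell by 0.56 (SE 0.09, edgeR adjusted p = 3.66e-04).

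Among the remaining nearest neighbours, calls were absent or no larger than the fall of TMSB15A given below. Beyond the nearest ones, larger falls were called for SERTM1 (-0.71, SE 0.19) beside CCDC169 and SOHLH2. The same held for TCEAL2 (-0.68, SE 0.06) and ARMCX5-GPRASP2 (-0.58, SE 0.12) beside BEX5. Falls were also called for EFHC2 beside MAOA (-0.54, SE 0.11) and ZNF112 beside ZNF229 (-0.47, SE 0.09). Larger rises were called for Z99129.4 beside PKIB (0.88, SE 0.14) and ZNF649 beside HAS1 (0.53, SE 0.06). BEX5 had 3 of 6 neighbours lower and 0 higher, and MAOA had 1 of 2 lower and 0 higher. MAOB, the paralogue of MAOA with its 3′ end 19.8 kb away, measured 3.61 ± 0.486 CPM in knockout libraries and 3.58 ± 0.490 CPM in WT libraries (0.01, SE 0.12, edgeR adjusted p = 0.953). ZNF180 rose by 0.31 (SE 0.07), ZNF285 on the other side of ZNF229 stood at 0.03 (SE 0.09), and CPQ, 123.8 kb from TSPYL5, at 0.30 (SE 0.16), both without a call. On the sides of BEX5, TMSB15A fell by 0.45 (SE 0.08) and TCEAL6 stood at 0.68 (SE 0.41) without a call. RIT1 beside SYT11 was not called (edgeR adjusted p = 0.993), and ZNF577 beside HAS1 rose by 0.21 (SE 0.05). AC106872.2 beside TRIM61 stood at 0.95 (SE 0.45) and AP002982.1 beside TSPYL5 at 0.84 (SE 0.66), both without a call.

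**Figure D3:**
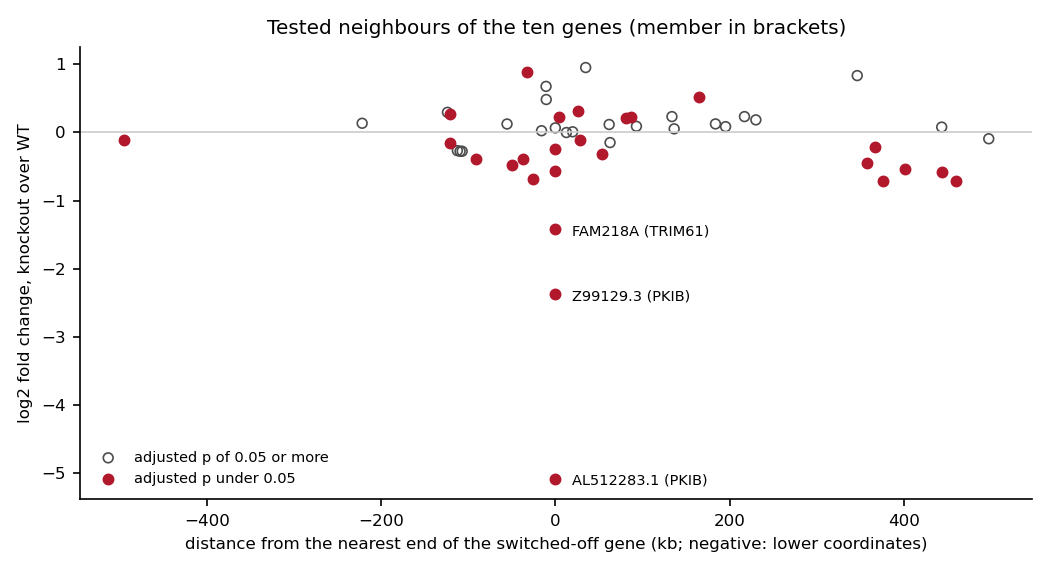
Log2 fold change, knockout over WT, of the 47 tested neighbours against distance from the nearest end of the gene they adjoin, in kb. Filled points have an edgeR adjusted p under 0.05, open points do not, and a neighbour of both CCDC169 and SOHLH2 is drawn once for each. Only the 3 labelled transcripts, which overlap PKIB or TRIM61, lie beyond 1 in size.

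Of 30 tested close relatives of the 10 genes, 12 fell (40%) and 5 rose (16.7%), where 24.1% of all tested genes fell and 21.9% rose. The lowest log2 fold change of these relatives was -1.82. The 10 genes reached from -4.23 downward, a depth that the choice of them fixed. Of the 4 BEX relatives tested, 3 rose and 0 fell. BEX3, an adaptor of the p75 neurotrophin receptor, measured 454 ± 5.81 CPM in knockout libraries and 191 ± 8.48 CPM in WT libraries (1.25, SE 0.03, edgeR adjusted p = 1.91e-10). BEX4 measured 138 ± 9.40 CPM in knockout libraries and 61.0 ± 1.10 CPM in WT libraries (1.18, SE 0.04, edgeR adjusted p = 3.50e-09), and BEX2 was not called (0.08, SE 0.03). Over the whole BEX/TCEAL family of Xq22, 9 of 13 rose (69.2%) and 1 fell (7.69%), with a median of 0.33 against 0.002 over all tested genes. TCEAL7 rose by 0.89 (SE 0.06), while TCEAL2, 26.0 kb from BEX5, fell by 0.68 (SE 0.06). Reads of BEX genes with similar sequence may be shared.

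No call was made for the other inhibitors of protein kinase A. PKIA measured 21.1 ± 1.65 CPM in knockout libraries and 21.7 ± 0.685 CPM in WT libraries (-0.05, SE 0.05, edgeR adjusted p = 0.509). PKIG measured 17.6 ± 0.470 CPM in knockout libraries and 17.4 ± 1.19 CPM in WT libraries (0.01, SE 0.05, edgeR adjusted p = 0.849). Of the hyaluronan synthases, HAS3 fell to 47.5 ± 9.53 CPM in the knockout, against 79.6 ± 7.63 CPM in WT (-0.75, SE 0.12, edgeR adjusted p = 3.56e-04). HAS2 measured 4.40 ± 0.533 CPM in knockout libraries and 3.94 ± 0.680 CPM in WT libraries and was not called (0.17, SE 0.13). Of the TSPYL relatives, TSPYL1 (-0.14) and TSPYL4 (-0.20) fell and TSPYL2 (-0.02) was not called.

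Of 18 tested synaptotagmins and SYTL relatives, 9 fell (50%) and 2 rose (11.1%). SYT5 fell most, to 1.46 ± 0.246 CPM in the knockout, against 5.20 ± 0.224 CPM in WT (-1.82, SE 0.11, edgeR adjusted p = 2.75e-07), and SYT2 fell by 0.59 (SE 0.05). SYT1, the calcium sensor of fast neurotransmitter release, measured 34.6 ± 1.74 CPM in knockout libraries and 34.1 ± 1.12 CPM in WT libraries and was not called. Of 30 genes of the exocytosis machinery, 9 rose (30%) and 7 fell (23.3%), with a median of 0.06, and the share that fell is near that of all tested genes. NAPA, which recycles SNARE complexes, rose by 0.33 (SE 0.04), RAB3A, a synaptic vesicle GTPase, by 0.46 (SE 0.07) and SNAP23 by 0.19 (SE 0.03), while the priming factor UNC13B fell by 0.21 (SE 0.03).

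**Figure D4:**
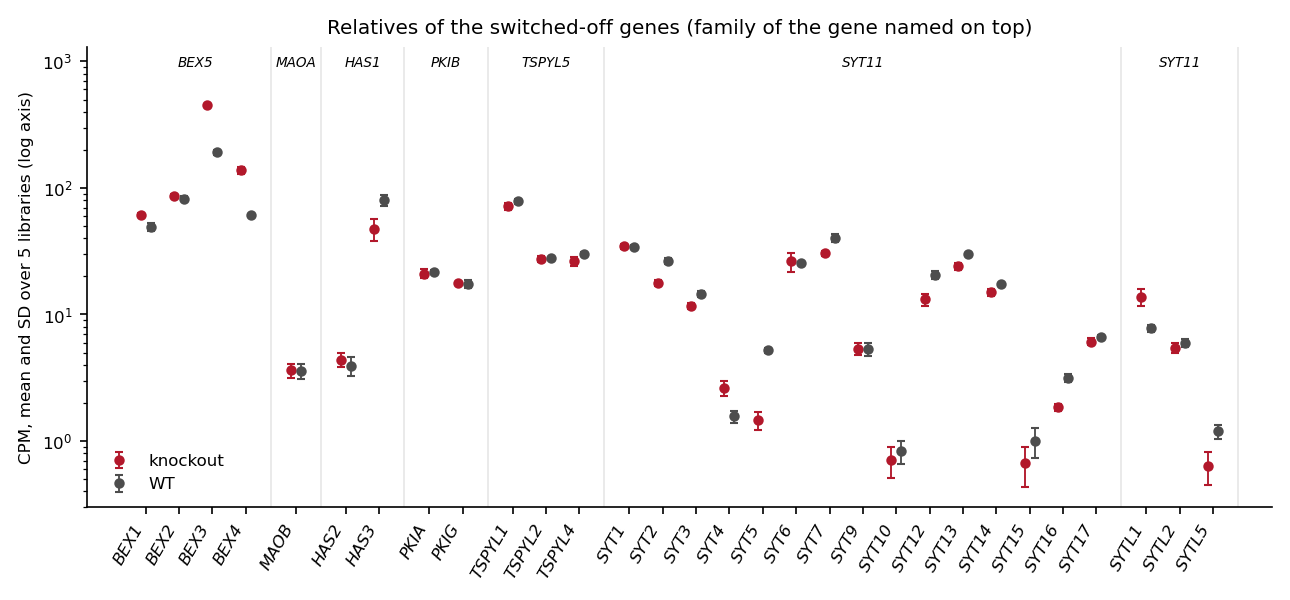
Levels of the 30 tested relatives of the 10 genes, in CPM on a log axis, as means with SD over 5 libraries (knockout red, WT grey), grouped by the gene they are related to. BEX3 and BEX4 are higher in the knockout, SYT5 and HAS3 are lower, and MAOB, PKIA and PKIG lie at the WT level within their SD.

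The lists of pathways around the 10 genes are read against the 24.1% of all tested genes that fell and the 21.9% that rose. Of 36 tested genes of protein kinase A and cAMP signalling, 18 fell (50%) and 4 rose (11.1%), with a median of -0.12. PDE4B, a cAMP phosphodiesterase, fell to 6.07 ± 0.848 CPM in the knockout, against 17.6 ± 1.06 CPM in WT (-1.53, SE 0.09, edgeR adjusted p = 1.68e-07). The anchor protein AKAP1 fell by 0.60 (SE 0.05) and the adenylyl cyclase ADCY1 by 0.45 (SE 0.04). PRKX, a related catalytic kinase with a near-identical copy that may share reads, measured 154 ± 3.34 CPM in knockout libraries and 77.3 ± 2.15 CPM in WT libraries (0.99, SE 0.03, edgeR adjusted p = 3.00e-10).

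Of 17 tested genes of monoamine handling, 4 fell (23.5%) and 3 rose (17.6%), shares near those of all tested genes. The vesicular transporter SLC18A2 fell by 0.68 (SE 0.10), and QDPR and PTS, which maintain the cofactor of monoamine synthesis, rose by 0.35 (SE 0.03) and 0.29 (SE 0.05), as did ALDH2 by 0.31 (SE 0.06). The number that fell was 2 without WT library 2 or without WT library 3. TH, DDC, TPH1 and TPH2, the enzymes that make monoamines, had too few counts to test. Of 18 hyaluronan genes, 7 fell (38.9%) and 2 rose (11.1%). UGP2, which makes the precursor UDP-glucose, rose by 0.76 (SE 0.04), and the hyaluronan receptor CD44 fell by 0.59 (SE 0.07) and STAB2, at 0.192 CPM in knockout libraries and 0.524 CPM in WT libraries, by 1.42 (SE 0.23). The number that rose was 1 without knockout library 4 or 5 or without WT library 1, 2 or 4.

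Of 16 tested germ cell regulators, 5 fell (31.2%) and 4 rose (25%), near the shares of all tested genes. SOHLH1, the partner of SOHLH2 in mouse germ cells, had too few counts to test, at 0.0114 CPM in knockout libraries and 0.0109 CPM in WT libraries. DAZL, a germ cell RNA-binding protein, fell to 1.29 ± 0.268 CPM in the knockout, against 3.10 ± 0.383 CPM in WT (-1.26, SE 0.15), and MEIOC, a meiotic regulator, fell by 0.50 (SE 0.06). KITLG, a germ cell survival ligand, rose by 0.60 (SE 0.08) and PRDM1 by 1.56 (SE 0.33). Of 5 tested genes around the route reported for TSPYL5, 1 fell (20%), 2 rose (40%) and 2 were not called. USP7 fell by 0.10 (SE 0.03), MDM2 rose by 0.67 (SE 0.11) and MDM4 rose by 0.24 (SE 0.08). The MDM4 call was lost without knockout library 4 or 5 or WT library 4.

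Of 19 tested zinc finger genes in the cluster of ZNF229 at 19q13.31, 5 rose (26.3%) and 4 fell (21.1%), with a median of 0.03, near the shares of all tested genes. ZNF404 rose by 1.08 (SE 0.13), ZNF283 by 0.77 (SE 0.14) and ZNF180 by 0.31 (SE 0.07), and ZNF112, 50.3 kb from ZNF229, fell by 0.47 (SE 0.09). The lowest of the 19 stood at -0.59, and ZNF229 itself had no count in the knockout. The number that fell was 2 without knockout library 2, 3 or 5 or WT library 3, and 1 without knockout library 4 or WT library 4. Cluster members have similar finger repeats, and reads may be shared between them.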

How the data were processed

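PolyA RNA of 10 libraries, 5 of KCNH2 knockout and 5 of WT cells, was sequenced with 150 paired-end cycles, per the labels' protocols. The deposited table of raw counts per gene was used, and the build (hg38), DESeq2 and R 3.6.3 are named in the submitters' processing notes. Neither aligner, counter nor strand use is stated in the sources at hand. The authors' deposited comparison table holds, by its column names, a signal (mean normalized count), log2 fold changes with standard errors, a score (the test statistic) and p-values. Only its symbols, log2 fold changes, calls and the standard error of SOHLH2 were used.

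Libraries were mapped to groups by their titles. CPM were computed with TMM library sizes. Tests used edgeR 4.0.16 (glmQLFit and glmQLFTest, filterByExpr, R 4.3.3) on 19163 genes, with Benjamini-Hochberg adjustment over all of them and a threshold of 0.05. On simulated counts of those genes this recovered 50 of 50 genes lowered by 5 on the log2 scale, with 5 false calls. The simulation gave all genes a common dispersion and drew libraries independently. It therefore does not measure the rate of false calls in the real libraries. Percentages of WT carry exact 95% counting intervals, and the limit for 0 counts is 3 counts. Coordinates come from GENCODE 29, promoter windows from RefSeq (GRCh38.p14). Named beside the 10 genes were KCNH2, up to 4 tested genes of smallest p per list, the nearest neighbour on each side, neighbours called beyond 1 on the log2 scale, and genes with a like pattern. PKIA, PKIG, HAS2, TSPYL1, TSPYL2, TSPYL4, BEX2, SYT1, SERINC1, SOHLH1, TH, DDC, TPH1 and TPH2 were named after their values were seen. So were EFHC2, ARMCX5-GPRASP2, ZNF649, SERTM1 and Z99129.4. The genes and lists were chosen with earlier results of these data known. One gene that the naming rule covers is not reported here. No pair of libraries of a group agreed within counting error (chi-square per degree of freedom 3.81 to 28.5).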

Additional observations from a re-analysis of the deposited data

Results flagged for a closer look

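Among 120 groups of 5 libraries checked over 62 named genes, 7 held a library far from the other 4 by Dixon's criterion, where chance flags about 1 in 20 groups. The 10 genes described above had 0 such groups. Of the 7, 2 were low values of knockout library 3. TCEAL6 stood at 0.334 CPM there, against 1.195 to 1.54 CPM in the other knockout libraries, and AC106872.2 at 5.24 CPM, against 16.3 to 20.1 CPM. Knockout library 1 was lowest for NAPA, at 59.356 CPM against 68.6 to 71.1 CPM in the other knockout libraries, and highest for UNC13B, at 90.377 CPM against 85.3 to 86.4 CPM. WT library 4 was lowest for ZNF285, at 3.876 CPM against 4.69 to 4.85 CPM in the other WT libraries, and for ALDH2, at 58.897 CPM against 62.8 to 63.9 CPM. WT library 5 was lowest for FAM218A, at 1.19 CPM against 1.73 to 1.93 CPM.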

How the results depend on the processing

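For the percentages of WT left, 130 alternatives were run. For the 4 genes with 0 knockout counts the percentage was 0 in each, which the counts fixed in advance. For the other genes it moved by less than the replicate spread in every alternative. Fitted log2 values stayed within that spread in 155 fits and moved beyond it in 14, all for the 4 genes with 0 knockout counts. The neighbours called lower numbered 11 with a window of 250 kb in place of 500 kb. Genes with a like pattern numbered 19 with a minimum WT level of 1 CPM. Leaving out each library gave 3846 to 4537 genes higher and 4150 to 4517 lower, 6 to 9 neighbours higher and 14 to 16 lower, 36 to 40 list genes higher and 50 to 56 lower, a median of 1.55 to 1.88% of WT left, and 9 genes with a like pattern each time. With the replicate number as a block, 4258 genes were higher and 4300 lower, with 7 and 15 neighbours and 36 and 55 list genes. Labels do not pair the libraries by number: deviations of same-numbered libraries correlated at -0.157 to 0.698. Without knockout 3, WT 2 and WT 3 the counts were 3596 and 3598. Of the list counts, 265 stayed within 1.5 times of their value and 23 fell below it. ZNF577 lost its call without knockout 3, WT 2 and WT 3, where MDM4 did too, and TCEAL6 and AC106872.2 gained one without knockout 3. Depth limits the statement on SOHLH2 most.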
